A study of Mus musculus with 2 samples.

Results

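CD8 T cells that carry Tcf7 transcripts but no Pdcd1 transcripts were examined among leukocytes sorted from B16-F10 melanomas. These cells were chosen by their own counts of unique molecular identifiers (UMIs, 1 per captured transcript). Barcodes were kept if they had 300 or more genes and no more than 10% of UMIs from mitochondrial genes. A kept barcode was a member when Cd3e, Cd8a, Cd8b1 and Tcf7 each had at least 1 UMI and Pdcd1, Cd4, Foxp3 and Csf1r had 0. Members also had no more than 2 UMIs of Mki67 plus Top2a, which mark cycling cells, and no more than 2 of Gzmc plus Gzmf, granzymes of strongly activated effectors. The rule found 408 cells of 22490 kept barcodes and of 4401 kept CD8 T cells, the latter taken by Cd3e, Cd8a and Cd8b1 without Cd4, Foxp3 or Csf1r. The other CD8 T cells were 180 with both Tcf7 and Pdcd1, 1589 with Pdcd1 and no Tcf7, 257 with neither, and 1967 over the cycling or granzyme limit.

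Male mice aged 8 to 12 weeks carried the tamoxifen-activated recombinase CreERT2 in 1 copy of the Rosa26 locus (R26CreERT2 ki/wt), which is active in host cells of many types and not in T cells alone. The Trex1 iKO group was Trex1 fl/fl and the Trex1 control group Trex1 wt/fl, so control mice had 1 floxed allele, the recombinase and tamoxifen as well. All received 1000 B16-F10 cells, a mouse melanoma line, in Matrigel in the skin of both legs, then 1 mg tamoxifen on 3 consecutive days from day 5, and tumours were collected on day 14. CD45-positive living cells were bead-enriched, sorted and run with 10x 3' chemistry as 1 pool per genotype, in which antibody hashtags mark samples 1 to 4. Genotype and pool cannot be told apart, and because the labels do not say that each of the 8 hashtagged samples is 1 mouse, p-values measure the spread between hashtagged samples. Members numbered 47, 82, 29 and 57 across iKO samples 1 to 4, and 54, 46, 54 and 39 across controls 1 to 4.

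TCF-1, the protein of Tcf7, is a transcription factor that keeps T cells able to self-renew, and Pdcd1 encodes the inhibitory receptor PD-1, which is induced by antigen signalling. In tumours, CD8 T cells with TCF-1 and without PD-1 are known to include naive cells, which recirculate through lymphoid organs by means of the chemokine receptor Ccr7, and memory cells that may not be specific for the tumour. Trex1 encodes a nuclease that degrades cytosolic DNA. When it is absent, such DNA can activate cGAS and STING, and the type I interferons produced then induce antiviral genes in the same cell and in its neighbours.

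Members had a median of 8396 UMIs per cell, with sample medians of 8062 to 10344 (iKO) and 7172 to 8759 (control). Summed over the members of a sample, the counts came to between 271664 UMIs in iKO sample 3 and 818225 in iKO sample 2. The sample's own hashtag was the highest in all 408 members, none had a Scrublet doublet score over 0.25, and no barcode was shared between samples of a pool. Trex1 had 0 UMIs in the members of every sample, which by counting error alone allows up to 3.67 CPM (UMIs scaled to a common library total) in iKO sample 2 and 11.04 CPM in iKO sample 3. It also had 0 UMIs in Pdcd1-positive Tcf7-negative CD8 T cells, in macrophages (taken by Csf1r and C1qa without Cd3e) and in B cells of both genotypes, so Trex1 counts do not check the labels. The macrophages of control sample 4 alone held 13019407 UMIs. Whether Trex1 reads were counted at all was not tested, and these limits hold only if they were. A small number of members had many transcripts of Cd74, a gene of the dendritic cell list given below. There were 12 members with 10 or more UMIs of Cd74, the invariant chain of MHC class II, 7 in iKO and 5 in control. In the 6 samples that had any, they held 27.9% to 92.0% of the Cd74 UMIs of the members, and the results named below as moving without them are given both ways. Without them 128 genes were called between genotypes (71 higher and 57 lower in iKO), 92 of them among the 102 called with all members.

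The markers that name these cells were present. Lef1, a partner of TCF-1 not used by the rule, had at least 1 UMI in 268 of 408 members (65.7%), against 8.12% of the 1589 Pdcd1-positive Tcf7-negative cells and 1.69% of B cells (taken by Cd79a and Ms4a1, median 4369 UMIs), where it should be absent. Summed per sample, Lef1 averaged 200.1 CPM in members, 87.2 CPM in cells with both Tcf7 and Pdcd1, and 13.5 CPM in Pdcd1-positive Tcf7-negative cells. S1pr1, the receptor by which T cells leave tissue, had 163, 83.1 and 12.98 CPM in the same order. Il7r, the receptor chain that receives the survival signal of interleukin-7, had 538, 427 and 57.1 CPM. Ccr7 had 155.9 CPM in members, 116 CPM in double-positive cells and 74.3 CPM in Pdcd1-positive Tcf7-negative cells. In control samples alone, Ccr7 of members lay within the range of Pdcd1-positive Tcf7-negative cells, as given below by sample. Cd8a averaged 454 CPM and Tcf7 406 CPM in members, both used by the rule. These comparisons between gates are descriptions, because the gates were cut on Tcf7 and Pdcd1 in the same cells. The sums of double-positive cells also held few cells, from 5 in control sample 4 to 67 in iKO sample 2.

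**Figure D1:**
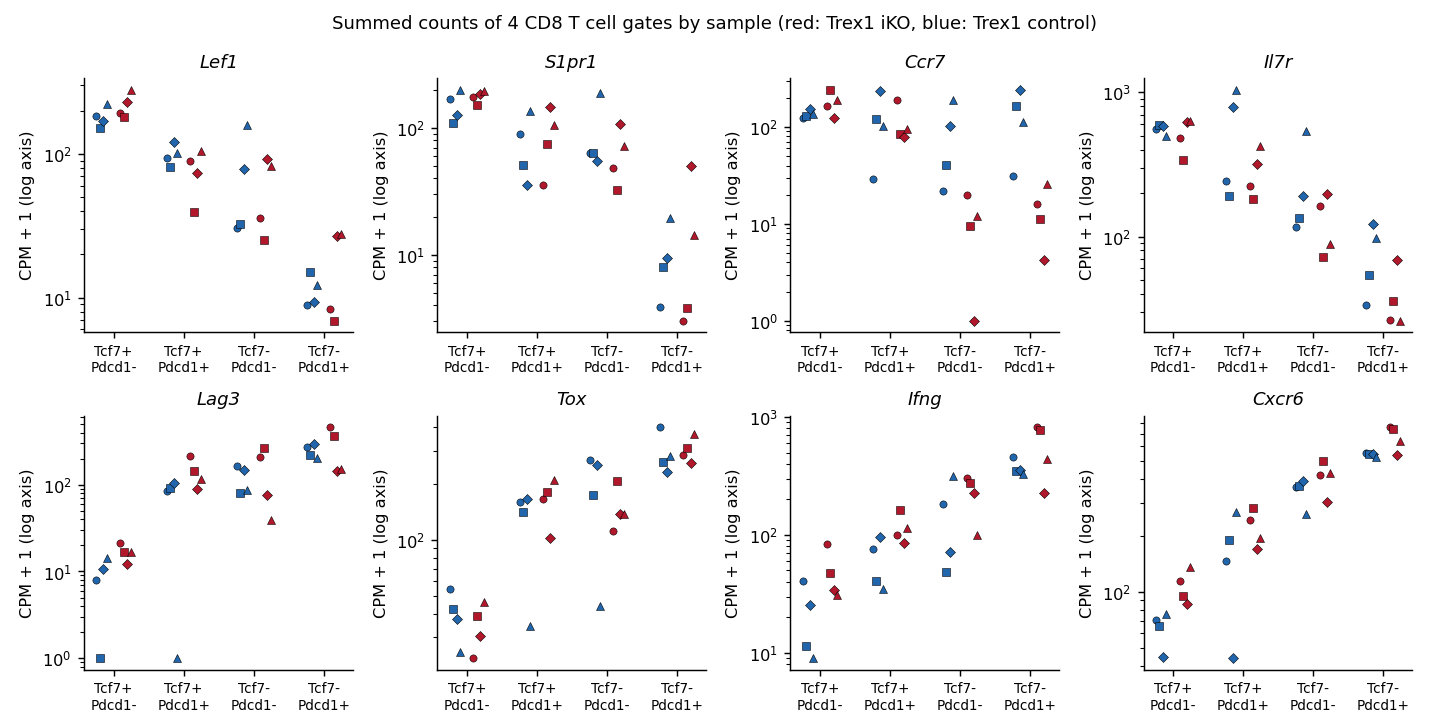
Each panel plots 1 gene in 4 gates of CD8 T cells defined by Tcf7 and Pdcd1, as CPM + 1 of the summed counts of each sample on a log axis, with red points for Trex1 iKO and blue points for Trex1 control. Lef1 and S1pr1 are highest in Tcf7-positive Pdcd1-negative cells (means 200.1 and 163 CPM) and lowest in Pdcd1-positive Tcf7-negative cells (13.5 and 12.98 CPM), while Lag3, Tox, Ifng and Cxcr6 run the other way.

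Receptors and regulators of chronically stimulated cells were low in members. Lag3, an inhibitory receptor, averaged 11.6 CPM in members, 105 CPM in cells with both Tcf7 and Pdcd1, and 264 CPM in Pdcd1-positive Tcf7-negative cells. Tox, a regulator of exhausted T cells, had 36.4, 143.5 and 297 CPM. Havcr2, which encodes the inhibitory receptor TIM-3, had 5.47 CPM in members and 168 CPM in Pdcd1-positive Tcf7-negative cells. The interferon-gamma gene Ifng had 34.3 against 468.5 CPM, and Cxcr6, a receptor of tumour-resident T cells, 85.1 against 605 CPM. Nkg7, a gene of cytotoxic granules, was at 1134 CPM in members, below the 3044 CPM of Pdcd1-positive Tcf7-negative cells but well above the 47.0 CPM of B cells. Slc16a11, a transporter gene, had 0 UMIs in the members of 7 samples and 2.33 CPM in control sample 1, and it averaged 82.9 CPM in Pdcd1-positive Tcf7-negative cells of control.

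At the edges of the rule, 107 members had exactly 1 Tcf7 UMI and 301 had 2 or more. Another 73 cells met every criterion but had exactly 1 Pdcd1 UMI, and 257 met every criterion but had no Tcf7 UMI. Among members, 88 had 1 or 2 UMIs of Mki67 plus Top2a, and 5 cells just outside had 3. Gzmc plus Gzmf came to 1 or 2 UMIs in 29 members, and no cell that met the other criteria had 3 or more.

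The members were a mixture when read by Ccl5, a chemokine gene that memory and effector CD8 T cells transcribe and naive cells do not, and which the rule did not use. Ccl5 had a low and a high range: 108 cells had 0 to 2 UMIs, 35 had 3 to 9, and 265 had 10 or more. Ccl5-low cells made up 21.3%, 29.3%, 37.9% and 33.3% of members across iKO samples 1 to 4, and 20.4%, 21.7%, 20.4% and 30.8% across controls 1 to 4. All 8 samples held both kinds, and the shares of the genotypes overlapped. The limit between 2 and 3 UMIs was set after the distribution had been seen.

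**Figure D2:**
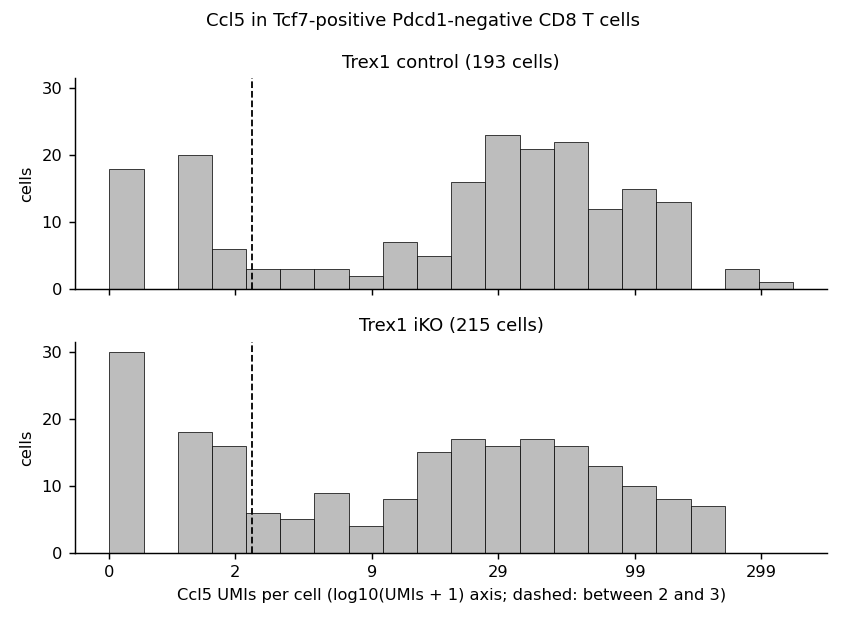
Histograms of Ccl5 UMIs per cell, on a log10(UMIs + 1) axis, for the 193 control members (top) and the 215 iKO members (bottom). Both genotypes have a group of cells at 0 to 2 UMIs, left of the dashed line, and a broad group to the right of it. Over all members, the low group included, the median was 32 UMIs in control and 18 UMIs in iKO.

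Other genes differed between the Ccl5-low and Ccl5-high members in the same sense, given here as mean CPM over the 8 samples with no test. The Ccl5-low sums held 10 to 24 cells per sample, so their low values rest on few UMIs. Lef1 was at 323 CPM in Ccl5-low and 160 CPM in Ccl5-high members, and Satb1, a chromatin organiser of naive T cells, at 639 and 455 CPM. Dapl1 had 364 and 104 CPM, and Igfbp4, a gene of naive and recently formed T cells, 161 and 10.4 CPM. Ccr9, the receptor that guides T cells to the gut and is found on recent thymic emigrants, had 23.6 and 3.55 CPM. In the other direction, Gzma, which encodes granzyme A, had 14.0 CPM in Ccl5-low and 240.1 CPM in Ccl5-high members. Gzmk had 10.6 and 83.9 CPM, and Gzmm 6.15 and 52.5 CPM. Itgb1, an integrin of memory T cells, had 83.3 and 277 CPM. Eomes, a transcription factor of memory cells, had 25.7 and 69.1 CPM, and Klrc2, a natural killer receptor gene found on memory-like CD8 T cells, 10.4 and 98.3 CPM. Cd44, an adhesion receptor raised on memory cells, had 33.1 and 80.5 CPM. Lag3 stayed low in both, at 14.8 and 11.5 CPM.

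No difference in the abundance of the cells between genotypes passed the test. Members were 1.21%, 1.39%, 2.22% and 2.32% of kept cells across iKO samples 1 to 4, and 2.73%, 2.69%, 1.96% and 1.56% across controls 1 to 4. Each of these shares has a 95% Wilson interval that covers counting error only, for example 0.915% to 1.61% in iKO sample 1. The means were 1.79% ± 0.566 (SD, n = 4) in iKO and 2.23% ± 0.573 (SD, n = 4) in control, and the two-sided exact permutation test gave p = 0.314 (0.471 adjusted over 3 shares). The smallest p that 4 against 4 samples can give is 0.0286. As a share of CD8 T cells, members were 4.35%, 3.76%, 23.2% and 27.5% across iKO samples 1 to 4, and 14.5%, 26.3%, 33.3% and 39.0% across controls 1 to 4. iKO samples 1 and 2 were lowest, and they also held the most CD8 T cells, 27.9% and 36.9% of kept cells, against 3.99% to 18.8% in the other 6 samples. The means were 14.7% ± 12.4 and 28.3% ± 10.5 (SD, n = 4 each, exact permutation p = 0.171, adjusted 0.471). Cells with at least 2000 UMIs were also thinned to 2000 and the rule was applied again, which 8 to 28 cells per sample then met. The shares of CD8 T cells were then 6.06% in iKO and 16.3% in control, with an exact permutation p of 0.0857.

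**Figure D3:**
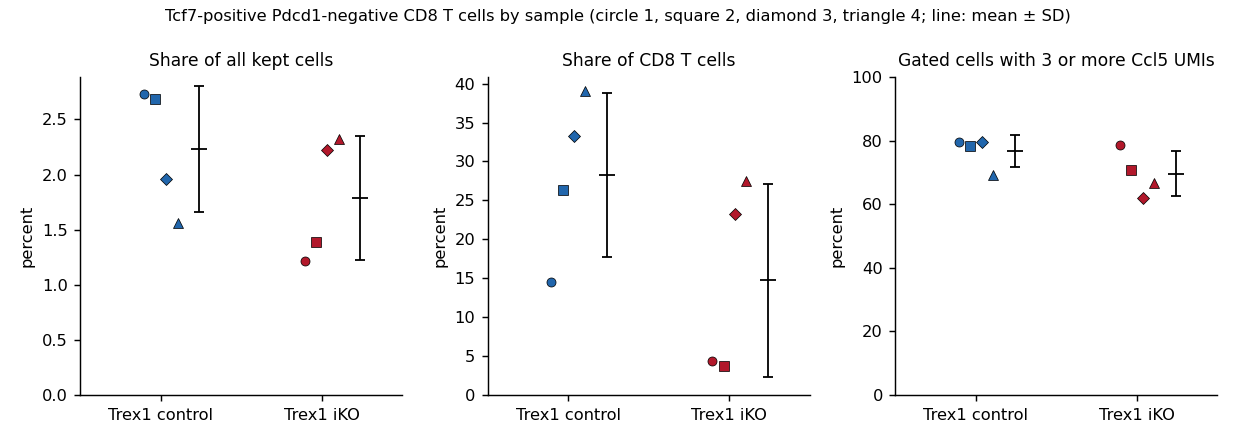
Percent of all kept cells and of CD8 T cells that are Tcf7-positive and Pdcd1-negative (left, middle), and percent of these with 3 or more Ccl5 UMIs (right), with 1 point per hashtagged sample and the mean ± SD beside the points. The genotypes overlap in all 3 panels, and iKO samples 1 and 2 lie at 4.35% and 3.76% of CD8 T cells.

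Shares within the members did not pass the test either. The share with at least 3 Ccl5 UMIs was 69.5% ± 7.07 in iKO and 76.7% ± 5.01 in control (SD, n = 4 each, exact permutation p = 0.2). Of the Tcf7-positive CD8 T cells below the cycling and granzyme limits, 64.8% ± 7.91 in iKO and 79.8% ± 7.73 in control lacked Pdcd1 (SD, n = 4 each, exact permutation p = 0.0857). A share set by an undetected gene moves with depth, and the median UMI counts above were on the whole higher in iKO. After thinning to 2000 UMIs, 8 to 28 cells per sample met the rule. Their share with at least 3 Ccl5 UMIs was 62.5% ± 8.82 in iKO and 72.2% ± 15.8 in control (SD, n = 4 each, exact permutation p = 0.314). For the share lacking Pdcd1, the part of depth was not tested. A lower limit that counted Ccl5 plus Nkg7 of at least 2 UMIs separated almost nothing: 95.03% ± 4.68 of members in iKO and 97.2% ± 3.67 in control passed it (SD, n = 4 each, exact permutation p = 0.571, adjusted 0.571).

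Gene expression of the members differed between genotypes, most of all in interferon-induced genes. The part that RNA from other cells had in the rise of interferon-induced genes was not tested. Counts were summed over the members of each sample and tested with edgeR's quasi-likelihood test, and a gene is called changed at a Benjamini-Hochberg adjusted p under 0.05 over all 4594 genes tested. In iKO, 64 genes rose (1.39% of those tested) and 38 fell (0.827%), and 661 had an unadjusted p under 0.05. The median log2 fold change over all genes tested was -0.01. Between 31 genes, without control sample 4, and 147 genes, without iKO sample 4, were called when 1 sample was left out. The count was 54 without iKO sample 1 (51 of them among the 102), 32 without iKO sample 2 (all among the 102), 36 without control sample 2 (35) and 41 without control sample 3 (40). Of the 31 genes without control sample 4, 30 were among the 102.

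Of 65 listed genes that type I interferon induces, 45 were tested, and 23 rose, none fell and 22 did not pass the test. Their median log2 fold change was 1.17, and all 45 had a value above 0, against 2231 of all 4594 genes. The low-count filter can admit a gene through iKO alone, which favours values above 0. With no low-count filter, 64 of the listed genes were tested. Their median was 1.30, and all 64 were above 0, against 6847 of all 14140 genes. The count of 23 fell to 13 and 9 without iKO sample 1 or 2, and to 10, 10 and 7 without control sample 2, 3 or 4. DESeq2 called 7 and gave no adjusted p for 26 of the 45. Without the 12 Cd74-high members the count was 29. Ifi27l2a, a small membrane protein gene of the interferon response, was at 2781, 3246, 1227 and 1296 normalised CPM across iKO samples 1 to 4, and at 387, 312, 320 and 341 across controls 1 to 4. Its log2 fold change was 2.66 ± 0.25 (SE, edgeR adjusted p = 9.31e-06). The lowest iKO sample lay more than 3-fold above the highest control sample, and the call held in all 19 alternatives (adjusted p up to 0.000269).

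Usp18, whose product removes ISG15 from proteins and dampens interferon receptor signalling, was at 179, 175, 59.6 and 67.6 normalised CPM in iKO samples 1 to 4. In control it was at 41.9, 13.7, 10.8 and 6.03. The log2 fold change was 2.74 ± 0.43 (SE, edgeR adjusted p = 0.00165). Irf7, the transcription factor that amplifies interferon production, was at 343, 315, 79.4 and 86.0 normalised CPM in iKO and at 34.5, 38.4, 40.4 and 24.1 in control. It rose by 2.64 ± 0.42 on the log2 scale (SE, edgeR adjusted p = 0.00177). Ifit2, a member of a family that binds viral RNA, rose by 2.16 ± 0.37 (SE, edgeR adjusted p = 0.00334), from 10.7 ± 4.63 to 47.7 ± 15.5 normalised CPM (SD, n = 4 each). In these 3 genes every iKO sample was above every control sample, and their calls held with each sample left out.

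iKO samples 1 and 2 were the high samples of this programme. Both were above iKO samples 3 and 4 for 43 of the 45 tested type I interferon genes, against 19.5% of all genes tested. The summed level of the 45 genes was 12346 and 12809 normalised CPM in iKO samples 1 and 2, 5222 and 5308 in iKO samples 3 and 4, and 2964 to 4405 in control. All 4 iKO samples were thus above all 4 control samples in the sum, while 10 of the 45 single genes had groups that did not overlap. Over all genes tested, 7.77% had groups that did not overlap, in either direction. The ubiquitin-like gene Isg15 (2.32 ± 0.54, SE, edgeR adjusted p = 0.0279) and the viral RNA binders Ifit1 (2.42 ± 0.59, 0.0328) and Ifit3 (2.35 ± 0.48, 0.0126) rose with groups that overlapped. Isg15 and Ifit1 lost the call without any of the same 5 samples, iKO 1 and 2 and control 2, 3 and 4 (adjusted p up to 0.124 and 0.159), and Isg15 with DESeq2 (0.0972). Ifit3 lost it without control sample 2, 3 or 4 (up to 0.0726). Xaf1, Rnf213, Ddx60, Zbp1 and Trim30a rose by 1.67, 1.58, 1.58, 1.31 and 1.17 on the log2 scale, with groups that did not overlap. Of these, Xaf1 and Rnf213 lost the call without control sample 3 or 4 (edgeR adjusted p up to 0.0605). Ddx60 and Zbp1 lost it without any of 5 samples, iKO 1 and 2 and control 2, 3 and 4 (adjusted p up to 0.0899 and 0.101), and Zbp1 lost it with DESeq2 (0.0568).

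Many promoters of genes that type I interferon induces hold an interferon-stimulated response element, and the core of that element was looked for in promoters as GAAA, then 2 bases of any kind, then GAAA, on either strand (TTTC, 2 bases, TTTC when it lies on the other). Promoters were taken from RefSeq, GRCm38.p6, as 250 bases before to 50 bases after each gene's start, and 48 of the 64 genes that rose had at least 1 there. The core occurred in 18 of their 56 promoters (32.1%), in 1 of 29 promoters of genes that fell (3.45%), in 4.09% of 4789 promoters of genes tested and in 3.44% of all 32851 promoters. A match describes the letters only. The genes that rose and had 2 or more matches before the start, and the neighbouring Ifi208, Ifi213 and Ifi214, which rose by 1.24, 1.67 and 1.17 and share 1 match, are shown because the letters in common can be seen in them. Each is written 5' to 3' on the strand of the gene, with the matches in capitals.
Isg15 (chr4:156200860-156200911, minus strand): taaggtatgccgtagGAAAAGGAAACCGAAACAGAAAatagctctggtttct
Ifit1 (chr19:34640770-34640828, plus strand): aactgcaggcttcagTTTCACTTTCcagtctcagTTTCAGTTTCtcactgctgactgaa
Ifit3 (chr19:34583358-34583431, plus strand): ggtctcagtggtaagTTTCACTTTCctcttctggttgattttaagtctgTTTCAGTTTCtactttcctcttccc
Ddx60 (chr8:61928019-61928086, plus strand): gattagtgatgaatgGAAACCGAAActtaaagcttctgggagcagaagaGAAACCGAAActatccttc
Bst2 (chr8:71537572-71537617, minus strand): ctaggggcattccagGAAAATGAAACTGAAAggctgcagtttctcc
Irgm1 (chr11:48871421-48871465, minus strand): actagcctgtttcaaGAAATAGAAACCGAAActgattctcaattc
Ifi213 (chr1:173599321-173599360, minus strand): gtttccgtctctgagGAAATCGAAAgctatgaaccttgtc
Ifi208 (chr1:173673592-173673631, plus strand): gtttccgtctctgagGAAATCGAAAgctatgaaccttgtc
Ifi214 (chr1:173536012-173536051, minus strand): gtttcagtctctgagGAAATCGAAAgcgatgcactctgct
In Isg15, Bst2 and Irgm1 matches overlap, so the capitals run together. Bst2 and Irgm1 rose by 1.67 and 1.49 (edgeR adjusted p = 0.0089 and 0.0319). They lost the call without any of 2 and 6 samples (adjusted p up to 0.0605 and 0.131). Ifi208, Ifi213 and Ifi214 had edgeR adjusted p = 0.0179, 0.00671 and 0.0309. Ifi208 lost the call without any of 4 samples (up to 0.0861) and Ifi214 without any of 5 (0.151). Ifi213 lost it without control sample 4 (0.0536). Ifi213 and Ifi208 have the same 40 letters, and genes of this cluster are so alike that their reads may be split between copies, which leaves the values of each uncertain. Coordinates are those of GRCm38.p6 and not of the GRCm39 build on which the reads were counted.

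**Figure D4:**
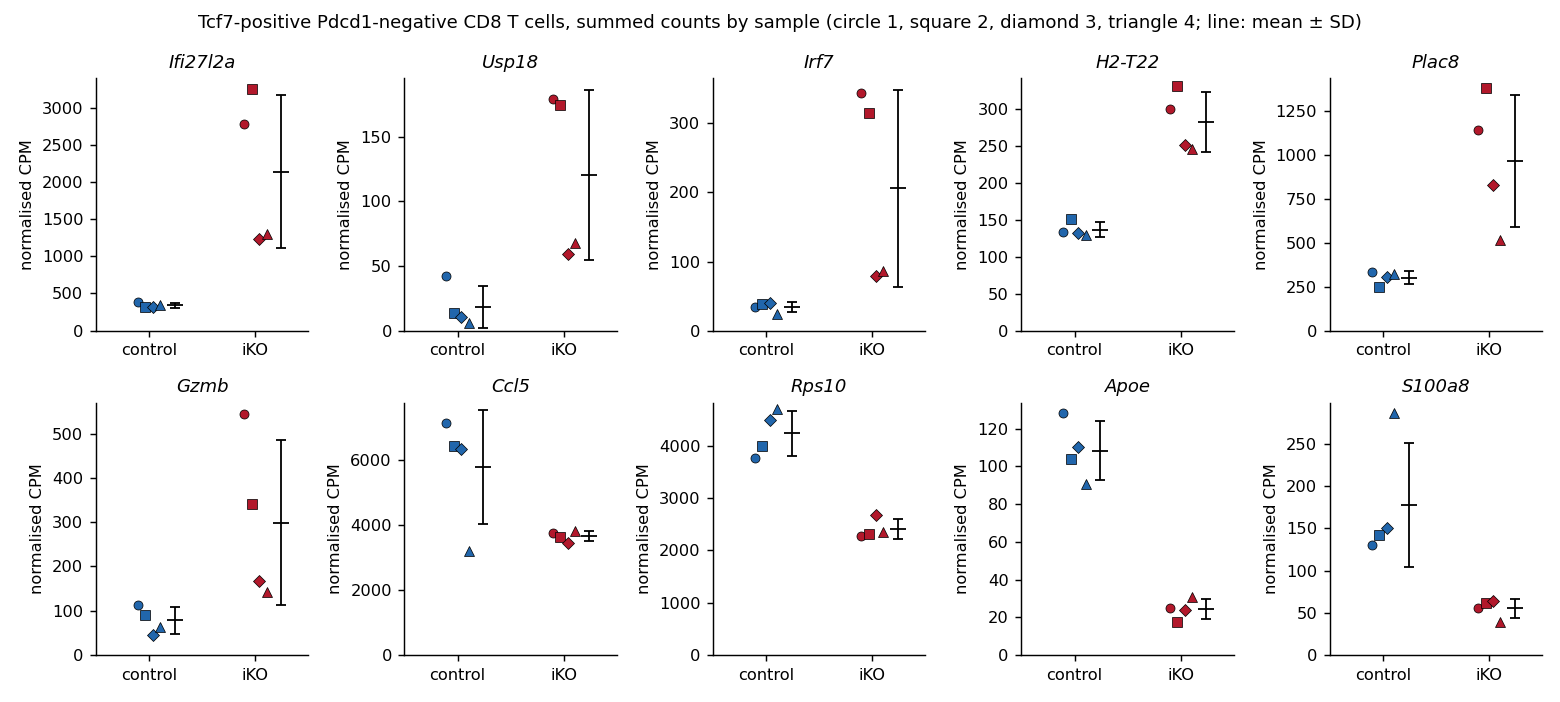
Normalised CPM of 10 genes in the summed counts of Tcf7-positive Pdcd1-negative CD8 T cells, 1 point per hashtagged sample, with the mean ± SD beside the points. Ifi27l2a, Usp18, Irf7, H2-T22, Plac8 and Gzmb are higher in every iKO sample than in any control sample, Rps10, Apoe and S100a8 are lower, and Ccl5 overlaps because control sample 4 lies at 3212 CPM.

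Genes of antigen presentation and other genes that interferon-gamma induces moved less. Of 38 listed, 32 were tested, 8 rose, none fell and 24 did not pass, and the median log2 fold change was 0.56. Left-out samples reduced the 8 to 2 without control sample 2, 3 or 4 and to 3 without iKO sample 1 or 2, and raised it to 15 without iKO sample 4. H2-T22, a non-classical class I gene, was at 299.7, 331, 250.2 and 246 normalised CPM in iKO samples 1 to 4 and at 133, 151, 132 and 129.7 in control. It rose by 1.06 ± 0.15 (SE, edgeR adjusted p = 0.00057), the groups did not overlap, and all 19 alternatives kept the call. H2-T23, which encodes the class I molecule Qa-1, rose by 0.86 ± 0.15 (SE, edgeR adjusted p = 0.00495). The classical class I genes H2-K1 and H2-D1 and their shared subunit B2m rose by 0.41, 0.47 and 0.38 on the log2 scale, from means of 1999, 1716 and 2067 to 2655, 2374 and 2695 normalised CPM (edgeR adjusted p = 0.0319, 0.0172 and 0.0396). All 3 lost the call without any of iKO samples 1 and 2 and control samples 2, 3 and 4 (adjusted p up to 0.127 for H2-K1, 0.0812 for H2-D1 and 0.195 for B2m). H2-Q7, another class I gene, rose by 0.77 ± 0.16 (SE, edgeR adjusted p = 0.0125) and lost the call without control sample 2, 3 or 4 (up to 0.068). H2 genes are close copies of each other, so reads may be split between them. Gbp2, an interferon-inducible GTPase, rose by 1.54 ± 0.36 (SE, edgeR adjusted p = 0.028) with groups that overlapped, and it lost the call without any of 6 samples (adjusted p up to 0.125). These were iKO samples 1 and 2 and each control sample.

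The machinery that receives the interferon signal did not change detectably. Of 14 tested genes of interferon receptors and their signalling, edgeR and DESeq2 each called 0 and 0 had an unadjusted p under 0.05 in edgeR (median log2 fold change -0.07). DESeq2 gave no adjusted p for 9 of them, and Jak1, a kinase of these receptors, was at -0.28 ± 0.14 (SE, edgeR adjusted p = 0.368). Among 7 tested genes of DNA sensing and clearance, Samhd1, whose product breaks down nucleotides, rose by 0.66 ± 0.15 (SE, edgeR adjusted p = 0.0233). Sting1 was at 0.37 ± 0.24 (edgeR adjusted p = 0.506). Samhd1 lost its call without any of iKO samples 1 and 2 and control samples 2, 3 and 4 (adjusted p up to 0.103).

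Effector genes divided. Of 33 tested genes of antigen-experienced and effector CD8 T cells, 2 rose, 1 fell and 30 did not pass, with a median log2 fold change of 0.22. Gzmb, which encodes granzyme B, was at 545, 342, 167 and 141 normalised CPM in iKO samples 1 to 4 and at 113, 90.4, 45.8 and 63.3 in control. It rose by 1.95 ± 0.35 (SE, edgeR adjusted p = 0.00531), every iKO sample was above every control sample, and the call held in all 18 alternatives. Gzmb transcripts were also more frequent in iKO among cells that are not known to make granzyme B: B cells had 44.5 ± 6.63 CPM with the iKO genotype and 14.5 ± 2.59 CPM with the control one (SD, n = 4 each), and macrophages 28.2 ± 5.95 and 4.998 ± 1.22 CPM. Their part in the difference of the members was not tested. Lgals1, which encodes galectin-1, rose by 0.81 ± 0.16 (SE, edgeR adjusted p = 0.00945) from 418 ± 105 to 737 ± 123 normalised CPM (SD, n = 4 each), and lost the call without control sample 2, 3 or 4 (adjusted p up to 0.0626).

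Ccl5 was the effector gene that fell, by 0.66 ± 0.16 on the log2 scale (SE, edgeR adjusted p = 0.0319). It was at 3748, 3651, 3447 and 3814 normalised CPM across iKO samples 1 to 4, and at 7165, 6452, 6362 and 3212 across controls 1 to 4. Control sample 4 lay below all iKO samples, and the other 3 control samples far above them. The call was lost without any of samples 1, 2 and 3 of either genotype (adjusted p up to 0.151), and DESeq2 gave an adjusted p of 0.0972. Among Ccl5-high members alone, the log2 fold change was -0.50 (edgeR adjusted p = 0.107). Nkg7 was at 0.29 ± 0.15 (SE, edgeR adjusted p = 0.392), Cxcr3, the receptor of interferon-induced chemokines, at 0.39 ± 0.19 (0.364), and Cd44 at -0.20 ± 0.20 (0.678).

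Plac8, a gene raised in interferon-exposed lymphocytes and myeloid cells, was at 1143, 1379, 826 and 518 normalised CPM in iKO and at 335, 247, 304 and 320 in control. It rose by 1.69 ± 0.22 (SE, edgeR adjusted p = 0.000209), and 18 of 19 alternatives kept the call. Cd69, an early activation receptor that holds T cells in tissue, rose by 0.77 ± 0.18 (SE, edgeR adjusted p = 0.0245), and Rgs1, which limits chemokine receptor signalling, by 0.77 ± 0.19 (0.0336). These were the only calls among 7 tested genes of tissue residency, and each was lost when single samples were left out (adjusted p up to 0.104 for Cd69 and 0.149 for Rgs1). The samples concerned were iKO 1 and 2 and control 2, 3 and 4 for Cd69, and iKO 2, 3 and 4 and control 2, 3 and 4 for Rgs1. Rgs1 also lost the call without the Cd74-high members. Cxcr6, of the same list, was at 0.70 ± 0.20 (SE, edgeR adjusted p = 0.0735), and it was called higher without those members (0.78, adjusted p = 0.0242).

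Ly6a and Ly6c2, which encode surface proteins of the Ly6 family that interferons induce on T cells, rose, and Ly6e was at 0.33 ± 0.13 (SE, edgeR adjusted p = 0.234). Ly6a was at 1240, 1320, 496 and 530.2 normalised CPM in iKO samples 1 to 4 and at 387, 351, 447 and 274 in control (log2 fold change 1.31 ± 0.26, SE, edgeR adjusted p = 0.00961). It lost the call without control sample 2 or 4 (adjusted p up to 0.0654). Ly6c2 was at 2916, 2666, 1902 and 1109 normalised CPM in iKO and at 1561, 913, 848 and 736 in control (1.08 ± 0.24, SE, edgeR adjusted p = 0.02). Control sample 1 was above iKO sample 4, so the groups overlapped, and the call was lost without any of iKO samples 1 and 2 and control samples 2, 3 and 4 (adjusted p up to 0.102) and with DESeq2 (0.0657). Ly6c2 moved with RNA found in other cells: B cells had 709 ± 396 CPM against 63.3 ± 56.3 CPM (SD, n = 4 each), and its part in the result was not tested.

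Genes of the naive and central memory state did not change detectably. Of 26 tested, edgeR and DESeq2 each called 0, although DESeq2 gave no adjusted p for 9, and 2 had an unadjusted p under 0.05 in edgeR. Their median log2 fold change was -0.01. Lef1 was at 0.21 ± 0.17 (SE, edgeR adjusted p = 0.615) and Il7r at -0.18 ± 0.16 (0.649). S1pr1 was at 0.15 ± 0.18 (0.747), and Klf2, which drives its transcription, at 0.14 ± 0.21 (0.814). Il7r was at 493, 347, 671 and 655 normalised CPM in iKO and at 592, 625, 640.5 and 564 in control, so the groups overlapped. Tcf7 itself, used by the rule, was at -0.18 ± 0.16 (SE, edgeR adjusted p = 0.643).

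edgeR called 0 genes in 6 other lists. These were 8 tested genes of exhaustion and checkpoints (median log2 fold change 0.11), 13 of cytokine receptors (0.18) and 17 of trafficking (0.27), with 0, 1 and 7 genes at an unadjusted p under 0.05. The others were 20 genes of quiescence and survival (-0.04), 12 of glycolysis and hypoxia (0.24) and 30 of oxidative phosphorylation (0.03), with 3, 3 and 2 such genes. Over all 4594 genes tested, 661 had an unadjusted p under 0.05. Without the Cd74-high members, edgeR called 1 of the trafficking genes higher in iKO. DESeq2 called 1 cytokine receptor gene and 1 glycolysis and hypoxia gene, and 0 in the other 4 lists. Of 22 tested immediate-early and heat-shock genes, Hspa8, a constitutive chaperone, rose by 0.60 ± 0.10 (SE, edgeR adjusted p = 0.00334). It was at 1906, 2139, 1858 and 1670.3 normalised CPM in iKO and at 1231, 1102, 1359 and 1318 in control, with no overlap. Fos, a transcription factor gene that tissue digestion can induce, was at -0.50 ± 0.20 (SE, edgeR adjusted p = 0.251).

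Ribosomal protein genes were 12 of the 38 genes that fell. Of 76 tested, 12 fell, none rose and 64 did not pass, with a median log2 fold change of -0.20. The count was 3 or 4 without any of iKO samples 1 and 2 and control samples 2, 3 and 4, and 22 without the Cd74-high members. Rps10 was at 2271, 2306, 2688 and 2360.2 normalised CPM in iKO and at 3764, 4002, 4505 and 4704 in control, and fell by 0.82 ± 0.09 (SE, edgeR adjusted p = 3.49e-05). Rpl23a fell by 0.54 ± 0.08 (SE, edgeR adjusted p = 0.00109). Both calls held in all 18 alternatives, and the groups did not overlap. Ribosomal protein genes took 33.0% to 37.0% of the members' UMIs in iKO and 36.8% to 40.8% in control. Lars2, the mitochondrial leucyl-tRNA synthetase gene, fell by 0.95 ± 0.14 (SE, edgeR adjusted p = 0.000892), from 317 ± 26.1 to 163 ± 21.8 normalised CPM (SD, n = 4 each). Its level was also lower in macrophages of iKO (170 ± 11.1 against 213 ± 14.9 CPM) and in B cells (182 ± 38.1 against 320 ± 12.3 CPM). Tasor, a gene of a silencing complex, Pds5a, a cohesin regulator gene, Prpf39, a splicing factor gene, Hspa9, a mitochondrial chaperone gene, and Wdr89 fell by 0.82, 0.80, 0.92, 0.80 and 0.97. Each lost the call when single samples were left out, Tasor and Pds5a without any of 3 samples, Wdr89 without any of 5, Prpf39 without any of 6 and Hspa9 without any of the 8.

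The largest decreases were in transcripts of macrophages and neutrophils. Apoe, a lipid carrier gene of macrophages, was at 25.0, 17.6, 23.8 and 30.7 normalised CPM in iKO samples 1 to 4 and at 128, 104, 110.3 and 90.5 in control, a log2 fold change of -2.19 ± 0.22 (SE, edgeR adjusted p = 2.05e-05). The neutrophil alarmin genes S100a8 and S100a9 fell by 1.68 ± 0.24 and 1.76 ± 0.19 (SE, edgeR adjusted p = 0.000864 and 2.27e-05). Cxcl2, a neutrophil-attracting chemokine gene, fell by 2.04 ± 0.22 (SE, edgeR adjusted p = 2.27e-05). The 5 neutrophil markers together came to 109 to 144 CPM in iKO and 308 to 545 CPM in control, and all 5 were lower in iKO. The 11 macrophage markers came to 264 to 285 CPM in iKO and 358 to 496 CPM in control, and 8 were lower in iKO. S100a8 was also lower in B cells of iKO, with 63.9 ± 21.8 against 1108 ± 673 CPM (SD, n = 4 each). It was detected in 28.1% to 40.4% of members in iKO and 51.9% to 69.2% in control, and in 21.8% to 35.1% and 42.9% to 72.2% of B cells, which should lack it. Because the shares were near those of B cells, the decrease of these transcripts is not read as a change in expression by the members, and their source was not tested.

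Markers of other lymphocytes were low. Ncr1, Klrb1c and Klra8, genes of natural killer cells, summed to between 0 and 51.5 CPM per sample, and Trdc and Zbtb16, of gamma-delta and innate-like T cells, to between 0 and 47.7 CPM, with Zbtb16 at 0. The B cell markers came to 88.3 to 193 CPM in iKO and 117 to 367 CPM in control. The dendritic cell list came to 236 to 2752 CPM in iKO and 352 to 1316 CPM in control, with Siglech at 0. The 2 genes of this list that were tested, Cd74 and H2-Aa, a class II gene, were at 0.46 ± 0.52 and 1.12 ± 0.49 (SE, edgeR adjusted p = 0.728 and 0.299). Without the Cd74-high members, a choice made on Cd74 itself, both turned and were called lower in iKO, at -0.98 for Cd74 and -0.95 for H2-Aa (edgeR adjusted p = 0.000235 and 0.00251). Melanoma markers came to 6.07 to 15.9 CPM in iKO and at most 4.89 CPM in control, without overlap, and the fibroblast collagens were at 0.

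A last comparison asked whether the genotype difference in members differed from that in the 1589 Pdcd1-positive Tcf7-negative CD8 T cells of the same samples. The latter had 388 called genes of 5657 (6.86%), 202 of them higher in iKO. The difference itself was tested per gene as an interaction in edgeR with the hashtagged sample as a block, and 31 of 6022 genes passed (0.515%), 26 with the larger value in members. Left-out samples moved this count to between 9 and 64. It was 64 without iKO sample 1, 11 without iKO sample 2, 16 without control sample 2 and 9 without control sample 3. Without the cells of 10 or more Cd74 UMIs, 12 members and 45 Pdcd1-positive cells, it was 6. Among the lost genes were Fscn1, Cxcl16 and Cst3, which are abundant in dendritic cells and are named here after their values were seen. Tbc1d4 and Clic4, among the 6 genes of smallest p, lost the call as well (edgeR adjusted p = 0.424 and 0.127), and Cd83 lost it without iKO sample 2 (0.121).

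Ccr7 differed between genotypes in Pdcd1-positive cells and not detectably in members. In members it was at 162, 239.5, 121 and 189 CPM in iKO samples 1 to 4 and at 123.5, 127, 152 and 134 CPM in control. In Pdcd1-positive Tcf7-negative cells it was at 14.98, 10.3, 3.24 and 25.0 CPM in iKO and at 30.2, 162, 237 and 112 CPM in control. Control sample 1 was the lowest of the controls there and still above every iKO sample. The log2 fold change was 0.38 in members (edgeR adjusted p = 0.332) and -3.27 in Pdcd1-positive cells (0.00194), a difference of 3.57 ± 0.45 (SE, edgeR adjusted p = 0.000359). It was called in all 12 alternatives, with an adjusted p up to 0.00547, and was 3.14 without the Cd74-high cells. Actn1, which encodes the actin crosslinker alpha-actinin-1, had log2 fold changes of 0.09 in members and -1.90 in Pdcd1-positive cells, a difference of 1.93 ± 0.29 (SE, edgeR adjusted p = 0.00205, up to 0.0211 in 12 alternatives).

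**Figure D5:**
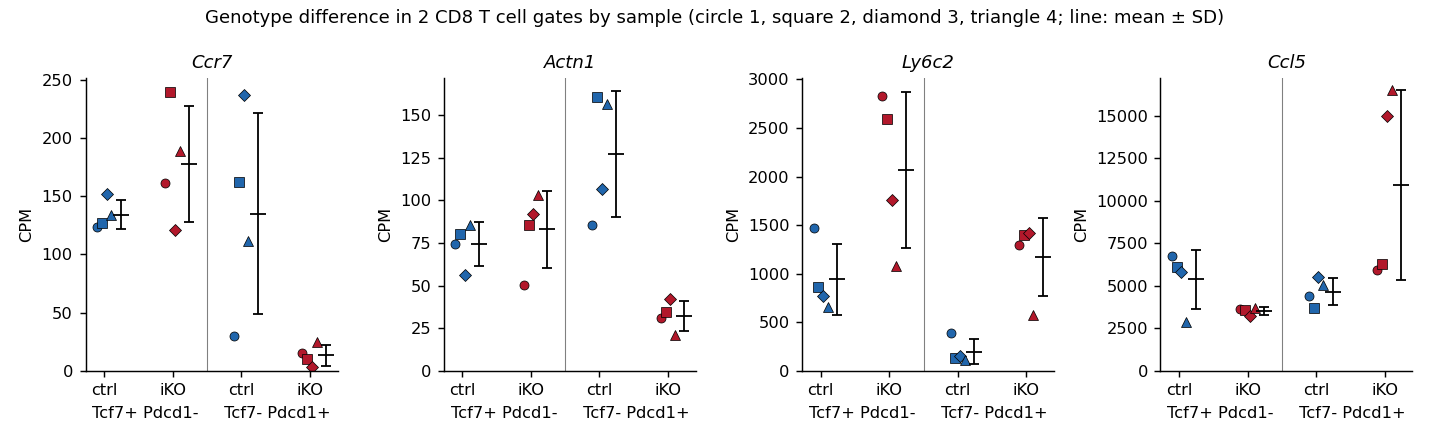
CPM of Ccr7, Actn1, Ly6c2 and Ccl5 in the summed counts of Tcf7-positive Pdcd1-negative cells (left of each panel) and Pdcd1-positive Tcf7-negative cells (right), 1 point per hashtagged sample, blue for control and red for iKO, with the mean ± SD beside the points. Ccr7 and Actn1 are lower in iKO on the right side only, Ly6c2 is higher in iKO on both sides, and Ccl5 has its highest values, 14955 and 16492 CPM, in iKO samples 3 and 4 on the right.

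Ly6c2 and Ccl5 had the opposite pattern. Ly6c2 rose by 1.08 in members and by 2.48 in Pdcd1-positive cells, a difference of -1.55 ± 0.18 (SE, edgeR adjusted p = 0.000199, up to 0.0035 in 12 alternatives). Members started from the higher level, 940.4 ± 367 CPM in control against 198 ± 128 CPM in Pdcd1-positive cells (SD, n = 4 each). In iKO the means were 2066 ± 804 and 1172 ± 401 CPM. Ly6c2 RNA was also higher in B cells of iKO, as given above, and its part in this difference was not tested. Ccl5 fell by 0.66 in members and rose by 1.21 in Pdcd1-positive cells, a difference of -1.70 ± 0.30 (SE, edgeR adjusted p = 0.00837, up to 0.0463 in 12 alternatives). In Pdcd1-positive cells Ccl5 was at 5935, 6252, 14955 and 16492 CPM in iKO and at 4393, 3673, 5488 and 5054 CPM in control.

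For the interferon-induced genes the 2 cell groups are given side by side. In Pdcd1-positive cells 37 of 44 tested type I interferon genes rose, with a median log2 fold change of 1.39, beside 23 of 45 and 1.17 in members. Over all genes tested, 202 of 5657 rose in Pdcd1-positive cells and 64 of 4594 in members. Pdcd1-positive sums held 4938498 and 11709503 UMIs in iKO samples 1 and 2, against 494490 and 818225 in members. In control sample 4 they held fewer than the members. The counts of calls therefore do not compare the size of the responses. Ifi27l2a had log2 fold changes of 2.66 in members and 2.57 in Pdcd1-positive cells (difference -0.09 ± 0.22, SE, edgeR adjusted p = 0.95). Gzmb had 1.95 and 2.31 (difference -0.51 ± 0.26, SE, edgeR adjusted p = 0.58). Of 55 type I interferon genes tested for the difference, edgeR and DESeq2 each called 0, and 12 had an unadjusted p under 0.05 in edgeR. Over all 6022 genes, 539 had such a p. Of 35 tested genes of the interferon-gamma list, edgeR and DESeq2 each called 1. Outside the type I list, Ifitm1 and Ifi211 were called for the difference (3.30 and 2.79, edgeR adjusted p = 0.00837 and 0.0462). Neither was called without the Cd74-high cells.

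Within the members, the interferon-induced difference was present in both Ccl5 ranges. In Ccl5-high cells 17 of 43 tested type I genes rose, with a median log2 fold change of 1.09, beside 52 of all 3986 genes tested there and a median of -0.02. In Ccl5-low cells 15 were deep enough to be tested, 2 rose and the median was 1.10, beside 8 of all 1174 genes and a median of 0.03. In both ranges a gene could pass the low-count filter through iKO alone. Ifi27l2a rose by 2.51 in Ccl5-high cells (edgeR adjusted p = 1.13e-05) and by 3.15 in Ccl5-low cells (3.16e-05). H2-T22 rose by 0.89 and 1.46 (edgeR adjusted p = 0.00814 and 0.0064). Rps10 fell by 0.87 and 0.80 (5.14e-05 and 0.000673). Gzmb rose by 1.92 in Ccl5-high cells (0.00377) and was too low to be tested in Ccl5-low cells. The difference between the ranges was not tested.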

How the data were processed

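UMI count matrices of 8 hashtagged samples were analysed, 4 per genotype, as deposited. Per the submitters' processing notes, the authors made the counts with Cell Ranger 7.1.0 on GRCm39, and how hashtags were assigned is not given in the sources used here. From 23731 barcodes, 22490 with at least 300 genes and no more than 10% mitochondrial UMIs were kept, and 4 hashtag features and 92 spike-in features with 0 counts were removed. The members and gene lists were chosen with earlier results of these data known. Cells are not replicates, so counts were summed per sample. Sums that were only described had no minimum of cells. Sums that were tested had at least 20 cells, or 10 within the Ccl5 ranges. Sums were tested with edgeR 4.0.16 in R 4.3.3 (TMM normalisation, filterByExpr, quasi-likelihood F test, Benjamini-Hochberg threshold 0.05), and the test was checked on simulated data. Normalised CPM in the genotype results use TMM library sizes, and other CPM use the total UMIs. Shares were compared with two-sided exact permutation tests. Doublets were scored with Scrublet in scanpy 1.11.5. Alternatives were DESeq2 1.42.0, library size without TMM, no low-count filter, a replicate block, each sample left out, doublets removed, thinning to 2000 UMIs and other limits for Tcf7, Ccl5 and Nkg7. Splitting at 3 Ccl5 UMIs, leaving out ribosomal protein genes and leaving out Cd74-high cells were chosen after seeing the data.

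Genes were named by rule: the 12 largest changes in each direction among called genes whose groups did not overlap and whose mean reached 50 CPM in 1 group, the 6 smallest p in the test of differences, up to 5 genes per list by smallest p, and a fixed set of identity, homing and effector genes. The text describes those of these genes that its results turn on, and the others are not reported here. The level descriptions and the promoter windows name further genes, chosen after their values were seen. Summed member counts of 271664 to 818225 UMIs per sample limit the precision for low genes, and intervals and floors cover counting error only.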

Additional observations from a re-analysis of the deposited data

Results flagged for a closer look

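In 92 groups of 4 samples examined for 1 sample standing apart, 3 were found, and chance gives about 1 in 20. All were control sample 4: 69.2% of its members had at least 3 Ccl5 UMIs, where the other controls had 78.3% to 79.6%. It also had 286 normalised CPM of S100a8 and 78.4 normalised CPM of Ccl6, a chemokine gene of myeloid cells. S100a8 was between 131 and 151 normalised CPM in the other controls.

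For 6 genes the genotype difference in members, minus that in Pdcd1-positive Tcf7-negative CD8 T cells, had the smallest p of the test of that difference in edgeR. On the log2 scale it was -1.55 for Ly6c2, 3.57 for Ccr7, 5.44 for Tbc1d4, 3.01 for Clic4, 3.32 for Cd83 and 1.93 for Actn1. Ly6c2, Ccr7 and Actn1 were called in all 12 alternatives, while Tbc1d4 and Clic4 were not called without the Cd74-high cells, where Cd83 could not be tested. For Ly6c2, the part of its RNA found in other cells was not tested.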

How the results depend on the processing

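The count of 102 genes changed between genotypes in the members became 266 with no low-count filter (of 14140 tested) and 17 in cells with at most 2 Ccl5 UMIs (of 1174 tested, from fewer cells), and ranged from 31 to 147 with 1 sample left out. DESeq2 called 73, of which 60 were shared. The count of 31 genes whose difference differed between the cell groups became 14 with DESeq2, 105 with no low-count filter (of 16957 tested) and 6 without the Cd74-high cells, and ranged from 9 to 64 with 1 sample left out. The cause was not tested where no smaller or larger number of genes, cells or samples explains it. The share with at least 2 UMIs of Ccl5 plus Nkg7 turned from lower to higher in iKO, by 3.20 percentage points, after thinning to 2000 UMIs (exact permutation p = 0.686). The alternatives that kept 4 against 4 samples left the shares of cells on the same side of the test's threshold. Leaving out 1 sample cannot give an exact permutation p below 0.0571, so it tests nothing there.

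Samples of the 2 genotypes share numbers, but same-numbered samples deviated together only weakly, with correlations of 0.113, 0.0739, 0.0518 and about 0. Pairing by number was therefore not assumed, and these values do not settle it. As a hint from the data, 3 of 4 samples correlated best with their own number. With the replicate block, 143 genes were called, 99 of them among the 102. Tests of genes after thinning, in cells with at most 1 UMI of Ccl5 plus Nkg7, and against double-positive cells were not run because too few samples had enough cells.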
